A study of Mus musculus with 7 samples.

Results

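The neuregulins Nrg1, Nrg2, Nrg3 and Nrg4 and the ErbB receptors Egfr, Erbb2, Erbb3 and Erbb4 were followed through the cell classes of the posterolateral cortical amygdala (plCoA), an olfactory region of the mouse brain. The 8 genes were taken by symbol from the 32285 genes of the count matrices, and each symbol matched 1 row. Nuclei came from the anterior (aplCoA) or the posterior (pplCoA) domain of male C57BL6J mice aged 8 weeks, with no transgene or drug treatment named in the labels. Each domain had 3 replicates, and every replicate was a pool of tissue from several single-housed mice kept in sensory deprivation before dissection, so that differences among animals could not be seen. Nuclei were stained with DRAQ7, sorted and sequenced by droplet 3' RNA sequencing, and aplCoA replicate 1 was sequenced as 2 libraries that were summed here.

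Neuregulins are growth factors of the EGF family. Many are made as membrane proteins whose extracellular part is released by ADAM and BACE1 proteases. Erbb3 and Erbb4 bind neuregulins, Erbb2 has no known ligand of its own and signals as the partner of the others, and Egfr answers to EGF, TGFα and related ligands but not to neuregulins. In cortex Erbb4 is best known from GABAergic interneurons, and in peripheral nerve axonal Nrg1 acting on Erbb2 and Erbb3 of Schwann cells sets the thickness of myelin.

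The 7 libraries held between 50812605 and 129624583 UMIs (unique molecular identifiers, 1 per captured RNA molecule). A floor of 1000 genes left 52201 barcodes, and 46389 nuclei remained after the removal of doublets and barcodes of poor quality, with 4028 to 14385 nuclei and a median of 5147 to 6759 UMIs per nucleus in a replicate. Any 2 libraries shared at most 0.406% of the barcodes of the smaller one. The median share of mitochondrial UMIs was 0.0241% to 0.0308% in the aplCoA replicates and 0.00980% to 0.0166% in the pplCoA replicates, without overlap, and its part in the domain differences below was not tested. Clusters made without the 8 genes were assigned by marker genes to 10 classes that held 46330 nuclei. The classes were 20033 glutamatergic and 5114 GABAergic nuclei, 9744 astrocytes, 3642 oligodendrocyte precursor cells (OPCs), 309 newly formed oligodendrocytes (NFOLs), 1532 mature oligodendrocytes (MOLs), 2782 microglia, 264 macrophages, 1858 vascular leptomeningeal cells (VLMCs) and 1052 arachnoid barrier cells (ABCs). Each name means that the nuclei were like that class by its markers. Mural cells (41 nuclei) and endothelial cells (18 nuclei) were too few for levels per replicate.

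All members are protein-coding genes in the GENCODE vM21 annotation of GRCm38, the mouse build of the counts, and reads in introns were counted. Nrg1 lies at chr8:31814551-32884029, Nrg2 at chr18:36017652-36197380, Nrg3 at chr14:38368952-39473088, Nrg4 at chr9:55220222-55326844 and Erbb3 at chr10:128567523-128589652, all on the minus strand. Egfr lies at chr11:16752203-16918158 and Erbb2 at chr11:98412470-98437716 on the plus strand, and Erbb4 at chr1:68032186-69108059 on the minus strand. The genes span between 22.1 kb (Erbb3) and 1104 kb (Nrg3), and longer genes with introns collect more UMIs, so levels are compared between classes for 1 gene and not between genes. The nuclei kept held 1859590 UMIs of Nrg3, 1191959 of Nrg1, 502734 of Erbb4, 70348 of Nrg2, 28747 of Egfr and 4715 of Nrg4, but only 705 of Erbb3 and 188 of Erbb2. Statements on the last pair rest on few molecules.

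Levels are given as CPM, which is the share of a gene among all UMIs of a class in a replicate, in ppm, with the mean ± SD over the 6 replicates. Barcodes with fewer than 100 UMIs, which hold RNA free in the suspension, give the background profile of each library.

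Nrg1, whose product is the best studied ligand of Erbb3 and Erbb4, was highest in glutamatergic nuclei at 4200 ± 496 CPM (n = 6). The 3 aplCoA replicates stood at 3728, 3538 and 4188 CPM and the 3 pplCoA replicates at 4748, 4712 and 4287 CPM. All 6 lay above every GABAergic replicate, where the values ran from 937 to 1720 CPM around a mean of 1322 ± 269. Within the same replicate Nrg1 was 3.18-fold higher in glutamatergic than in GABAergic nuclei, in 6 of 6 replicates (exact sign-flip permutation test, two-sided, p = 0.03125, the smallest that 6 pairs allow, adjusted p = 0.0357 over 8 class comparisons). NFOLs (792 ± 219 CPM) and OPCs (639 ± 37.3 CPM) came next, and the ranges of GABAergic nuclei and NFOLs, and of NFOLs and OPCs, overlapped. The remaining classes stood at 53.9 to 114 CPM. The free RNA held 1760 CPM on average. The free RNA of the same replicate was exceeded in 6 of 6 replicates by glutamatergic nuclei, in 1 of 6 by GABAergic nuclei and in none by the other classes. After thinning each nucleus to 2000 UMIs, 97.4% ± 1.67 of glutamatergic nuclei held a Nrg1 UMI, and 53.5% ± 3.08 of GABAergic nuclei, 55.6% ± 2.38 of OPCs and 11.8% ± 5.26 of microglia did. Unthinned, the shares of the neuron classes were 99.4% and 72.5%. Microglia were taken as the class that shows the background from free RNA. Median depth before thinning was 12207 UMIs in glutamatergic nuclei and 3182 in microglia, and 73 and 384 shallower nuclei were left out.

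Nrg3, a ligand of Erbb4 that is largely restricted to the nervous system, was high in both neuron classes. Glutamatergic nuclei held 6051 ± 318 CPM (lowest 5511, highest 6422) and GABAergic nuclei 5163 ± 788 CPM (lowest 4363, highest 6325). The ranges overlapped, and the 1.17-fold difference in favour of glutamatergic nuclei, seen in 5 of 6 replicates, did not pass (exact sign-flip permutation test, p = 0.0625, adjusted p = 0.0625). OPCs followed with 1763 ± 105 CPM, above every remaining class and 11.4-fold above NFOLs at 155 ± 44.4 CPM. The free RNA held 2839 CPM on average, below all replicates of both neuron classes and above those of OPCs. Microglia, the background class, held 113 ± 51.9 CPM. At 2000 UMIs per nucleus, 93.0% ± 0.592 of OPCs and 19.3% ± 7.98 of microglia held a Nrg3 UMI. The ranges of NFOLs, MOLs, astrocytes and microglia overlapped, so within the oligodendrocyte lineage only OPCs stood apart for Nrg3.

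Nrg2, another ligand of Erbb3 and Erbb4, was spread more evenly over neurons and OPCs together. It reached 212 ± 9.25 CPM in glutamatergic nuclei, 180 ± 8.79 in OPCs, 173 ± 6.24 in GABAergic nuclei, 105 ± 36.5 in NFOLs and 76.5 ± 8.19 in astrocytes. Glutamatergic nuclei exceeded GABAergic nuclei 1.22-fold in 6 of 6 replicates (exact sign-flip permutation test, p = 0.03125, adjusted p = 0.0357). The mean of macrophages was 243 ± 156 CPM, but it came from 205 UMIs in 264 nuclei and ran from 37.5 to 467 CPM, and its range overlapped that of glutamatergic nuclei. The lowest value was that of pplCoA replicate 1, with 11 macrophages, and 5 of 6 replicates exceeded the free RNA. Without thinning, 35.6% of macrophages and 2.88% of microglia held a Nrg2 UMI. Microglia, the other myeloid class, held 8.24 ± 1.87 CPM. MOLs (17.4 ± 10.3 CPM), VLMCs (7.54 ± 2.89 CPM) and ABCs (6.03 ± 6.46 CPM) were low as well.

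Nrg4, a ligand of Erbb4 better known from adipose tissue, was scarce throughout. Glutamatergic nuclei held 14.9 ± 0.780 CPM and GABAergic nuclei 10.2 ± 1.27 CPM, a 1.46-fold difference in 6 of 6 replicates (exact sign-flip permutation test, p = 0.03125, adjusted p = 0.0357). No other class exceeded 5.81 CPM on average, below the 6.58 CPM of the free RNA. Fbxo22, which overlaps Nrg4 on the opposite strand, was at 12.4 ± 0.747 CPM in glutamatergic nuclei, and the sources used here do not state whether the counting used strand, so part of the Nrg4 value is uncertain.

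Erbb4, the receptor that binds all 4 neuregulins, marked GABAergic nuclei. It stood at 7802, 9693 and 8908 CPM in the aplCoA replicates and at 9109, 9532 and 9046 CPM in the pplCoA replicates, a mean of 9015 ± 666. No replicate of another class came near these values. Glutamatergic nuclei held 123 ± 62.9 CPM, and the GABAergic level was 73.2-fold higher, in 6 of 6 replicates (exact sign-flip permutation test, p = 0.03125, adjusted p = 0.0357). The oligodendrocyte lineage came next, and its stages did not differ beyond their spread. OPCs held 2738 ± 167 CPM, MOLs 2516 ± 306 and NFOLs 2395 ± 202, with overlapping ranges. Astrocytes stood lower at 418 ± 23.5 CPM, and microglia, macrophages, VLMCs and ABCs at 22.2 to 26.4 CPM. The free RNA held 692 CPM, more than glutamatergic nuclei and astrocytes. At 2000 UMIs per nucleus, 95.9% ± 1.08 of GABAergic nuclei, 98.7% ± 0.354 of OPCs and 93.7% ± 3.27 of MOLs held an Erbb4 UMI. The share was 41.4% ± 2.38 in astrocytes and 14.4% ± 6.86 in glutamatergic nuclei, against 4.34% ± 1.99 in microglia, which serve as the background. Unthinned, the shares were 98.6% in GABAergic nuclei, 35.8% in glutamatergic nuclei and 7.25% in microglia.

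Erbb3, whose kinase is weak and which relies on a partner such as Erbb2 or Egfr, was highest in the oligodendrocyte lineage. MOLs held 79.6, 91.7 and 95.8 CPM in the aplCoA and 72.9, 61.8 and 70.5 CPM in the pplCoA, from 424 UMIs. OPCs held 12.5 ± 3.08 CPM (196 UMIs) and NFOLs 4.17 ± 3.15 CPM (7 UMIs), and no other class exceeded 0.521 CPM on average. MOLs exceeded OPCs 6.29-fold in 6 of 6 replicates (exact sign-flip permutation test, p = 0.03125, adjusted p = 0.0357). The level was not monotonic along the lineage, because the ranges of OPCs and NFOLs did not overlap and NFOLs were the lower, though on 7 UMIs. At 2000 UMIs per nucleus 13.2% ± 2.19 of MOLs held an Erbb3 UMI, against 0.0656% ± 0.119 of microglia.

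Erbb2, the partner receptor, was almost undetected. Its 188 UMIs lay mainly in astrocytes (80 UMIs, 2.40 ± 0.564 CPM), VLMCs (43 UMIs, 6.92 ± 4.12 CPM) and ABCs (40 UMIs, 9.80 ± 3.16 CPM). Mien1, which overlaps Erbb2 on the opposite strand, stood at 53.9% of the Erbb2 level in ABCs, so part of that value is uncertain. With classes from the marker UMIs of each nucleus the ABC level was 1.49 CPM, so the order of these classes is uncertain. No UMI was seen in 1532 MOLs, which allows up to 0.574 CPM (3 UMIs over the class), nor in NFOLs, microglia or macrophages. Astrocytes, summed over replicates, were thus at least 4.0-fold higher than MOLs over all replicates. No test per replicate is read from this comparison, though it is 1 of the 8 in the adjustment, since MOLs were at 0 in each and the pplCoA replicates 2 and 3 had only 108 and 64 MOLs. The class with the highest Erbb3 level was thus one in which no Erbb2 UMI was detected. At this depth and with 3' counting a level below the stated limit could not be seen.

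Egfr, the EGF receptor, had its own distribution. ABCs, the outer meningeal barrier cells, led with 955 ± 185 CPM (lowest 755, highest 1180), above every replicate of the next class. VLMCs followed with 408 ± 78.7 CPM and astrocytes with 331 ± 34.2 CPM, in overlapping ranges, then GABAergic nuclei with 235 ± 23.6 CPM and macrophages with 205 ± 94.9 CPM. Glutamatergic nuclei, microglia and the whole oligodendrocyte lineage were at 1.47 to 2.85 CPM on average, below the 46.6 CPM of the free RNA. Astrocytes exceeded OPCs 168-fold in 6 of 6 replicates (exact sign-flip permutation test, p = 0.03125, adjusted p = 0.0357). With 2000 UMIs per nucleus, 68.9% ± 5.38 of ABCs, 44.7% ± 5.83 of VLMCs, 42.7% ± 3.09 of astrocytes and 26.8% ± 2.27 of GABAergic nuclei held an Egfr UMI, and 0.352% ± 0.296 of microglia did. When each nucleus was classed by its own share of marker UMIs instead of by cluster, the level in ABCs was 134 CPM, so both the size of this value and the first place of ABCs depend on how ABCs are drawn. That way a nucleus took the class with the highest marker score, however few marker UMIs it held. The purity of the classes so made was not tested.

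**Figure D1:**
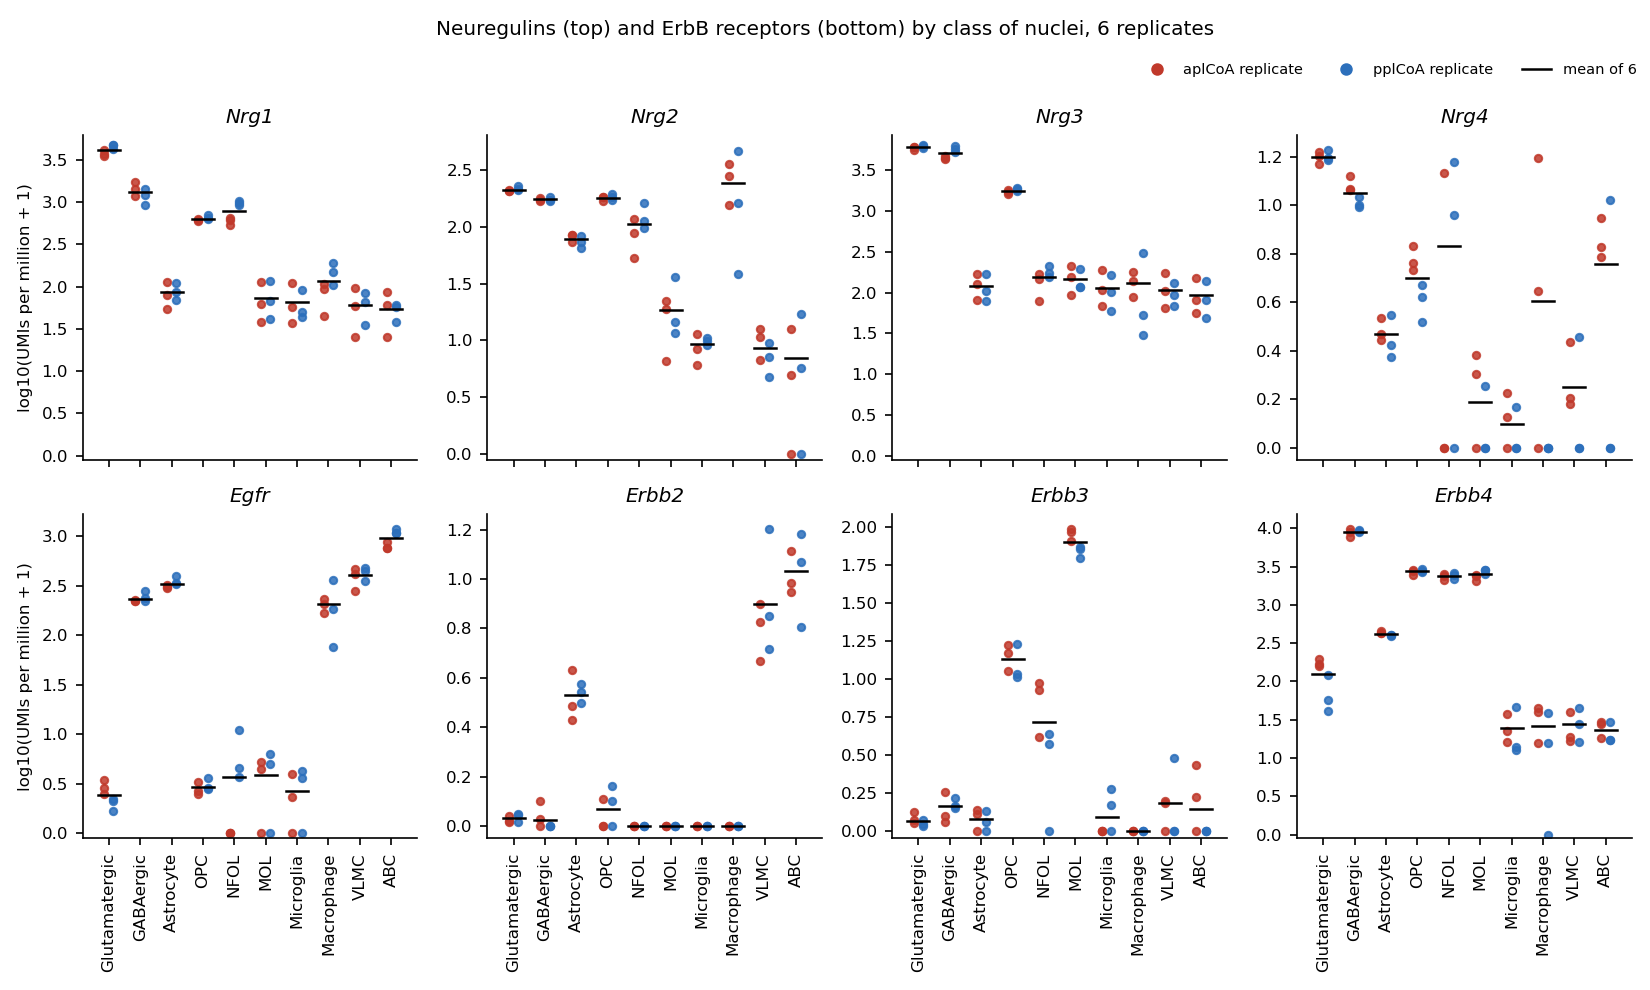
Level of each member in each class, as log10(CPM + 1), in panels whose vertical axes differ in range. Points are the 3 aplCoA (red) and 3 pplCoA (blue) replicates and black lines the log of the mean of the 6 levels. Nrg1 and Erbb4 separate glutamatergic from GABAergic nuclei while Nrg3 overlaps between them, Erbb3 peaks in MOLs at 78.7 CPM and Egfr in ABCs at 955 CPM.

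GABAergic nuclei were not uniform in these genes. They were divided into 26 subclusters, again without the members, of which 22 had at least 50 nuclei and at least 10 nuclei in 2 or more replicates. Subclusters were named only where fixed markers gave a clear call. Differences among these subclusters are described without a test. Every one of the 22 exceeded 1000 CPM of Erbb4 and 18 exceeded 5000 CPM, over a 14.5-fold range. Chandelier-like nuclei (subcluster 8, 280 nuclei), which resemble the interneurons that contact the axon initial segment, were highest with 16771 ± 1501 CPM (14012 to 18372 over 6 replicates). Lamp5-like nuclei, which resemble neurogliaform cells, came next with 14871 ± 1252 CPM in subcluster 6 and 14449 ± 1616 CPM in subcluster 10, in ranges that overlapped the first. The third Lamp5-like subcluster (1) held 10487 ± 1115 CPM, and Vip-like nuclei, which resemble interneurons that inhibit other interneurons, held 11293 ± 783 (subcluster 3) and 11144 ± 1115 CPM (subcluster 4). Cck-like nuclei (subcluster 18) held 4543 ± 844 CPM. The unnamed subcluster 11 had more Cck itself, at 430 against 177 CPM, beside 585 CPM of Vip. Its Erbb4 stood at 8466 ± 1136 CPM in the aplCoA and 8788 ± 387 CPM in the pplCoA, so nuclei rich in Cck were not all low. Sst-like nuclei, which resemble dendrite-targeting interneurons, were lowest: 2512 ± 671 CPM in subcluster 14, 1528 ± 304 in subcluster 16 and 1156 ± 144 in subcluster 5. The highest Sst-like replicate, at 3255 CPM, lay below the lowest replicate of every one of the other 19 subclusters.

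Egfr split the Erbb4-rich subclusters. It exceeded 100 CPM in 8 of the 22 subclusters and stayed under 10 CPM in 8. The Lamp5-like subclusters 6, 1 and 10 held 1084 ± 55.5, 798 ± 90.9 and 550 ± 133 CPM, and the Vip-like subclusters 3 and 4 held 514 ± 92.7 and 510 ± 88.4 CPM. Chandelier-like nuclei, at the top for Erbb4, held only 28.3 ± 17.2 CPM of Egfr, and the Sst-like subcluster 5 held 0.879 ± 1.49 CPM.

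The ligands followed other lines. Nrg1 ran over a 56.7-fold range, from 89.1 ± 24.5 CPM in the chandelier-like subcluster to 5048 ± 1261 CPM in subcluster 11. The latter was led by Itga8, Gulp1 and Cck and is unnamed. The Sst-like subcluster 14 was close behind with 4524 ± 1477 CPM, whereas the Sst-like subclusters 5 and 16 held 560 ± 191 and 553 ± 258 CPM. The ranges of subclusters 11 (3863 to 7195 CPM) and 14 (3052 to 6006 CPM) overlapped that of glutamatergic nuclei. Nrg3 reached 22022 ± 2497 CPM in subcluster 17 (123 nuclei, led by Esr1, the oestrogen receptor alpha gene, and Prss12, unnamed), with 19131 to 24491 CPM over 5 replicates. This lay above every replicate of the other subclusters, of which the Lamp5-like subcluster 10 (9790 ± 624 CPM) and the unnamed subcluster 15 (9789 ± 1443 CPM) came next. The lowest Nrg3 was in the Sst-like subcluster 14, at 2046 ± 195 CPM, so that this subcluster was among the highest for Nrg1 and the lowest for Nrg3.

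**Figure D2:**
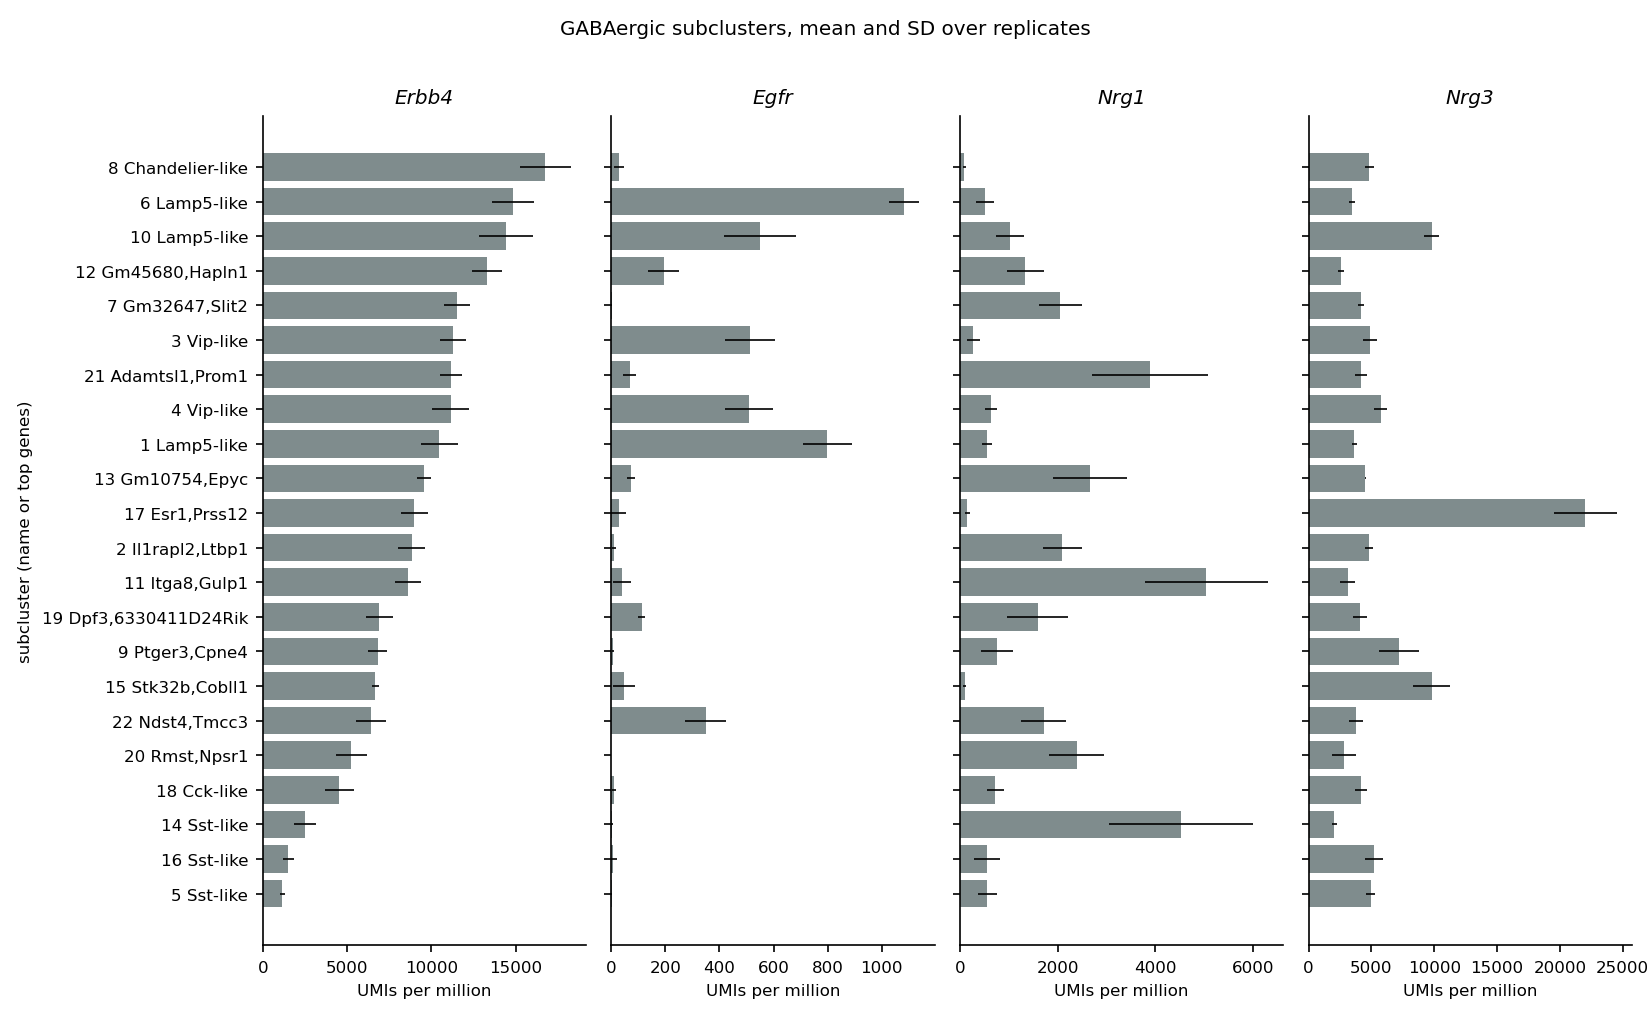
Mean level in CPM (bars, from 0) of Erbb4, Egfr, Nrg1 and Nrg3 in 22 GABAergic subclusters, with the SD over replicates of at least 10 nuclei as lines. Rows are ordered by Erbb4 and carry the name or the leading genes of the subcluster, from chandelier-like at 16771 CPM of Erbb4 to Sst-like subcluster 5 at 1156 CPM.

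Glutamatergic nuclei fell into 14 subclusters made without the members and without genes that differed between domains, 12 of them with at least 50 nuclei and 2 or more replicates. All 12 exceeded 1000 CPM of Nrg1, over a 4.89-fold range. Subcluster 8, led by genes that included Grik3 and Etv1, held 5934 ± 626 CPM and subcluster 6, led by Reln, 5888 ± 344 CPM. The paper places its Etv1 subtype in the posterior basomedial amygdala, outside the plCoA, and whether subcluster 8 matches it was not tested. Subcluster 1, the largest with 4978 nuclei, held 4893 ± 261 CPM. Low levels were found in subcluster 7, led by Ccbe1, at 2464 ± 820 CPM, and in subcluster 12, led by Prkcq, at 1213 ± 313 CPM. Nrg3 moved over only a 2.05-fold range, from 3486 ± 429 CPM in subcluster 10 to 7157 ± 559 CPM in subcluster 8. Erbb4 exceeded 100 CPM in 8 of the 12 subclusters. It was low in the largest, subcluster 1 (38.3 ± 17.8 CPM), and higher in subcluster 9, led by Ebf2 (458 ± 38.5 CPM), and subcluster 3, led by Vwa5b1 and Adarb2 (524 ± 500 CPM). The latter mean rests on pplCoA replicate 3 at 1537 CPM, and the other 5 replicates stood at 239 to 423 CPM, a range that overlaps that of subcluster 9. Subcluster 10 had 1003 ± 76.9 CPM, but its nuclei were shallow (median 3889 UMIs) and Gad2, a GABAergic marker, was among its leading genes.

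**Figure D3:**
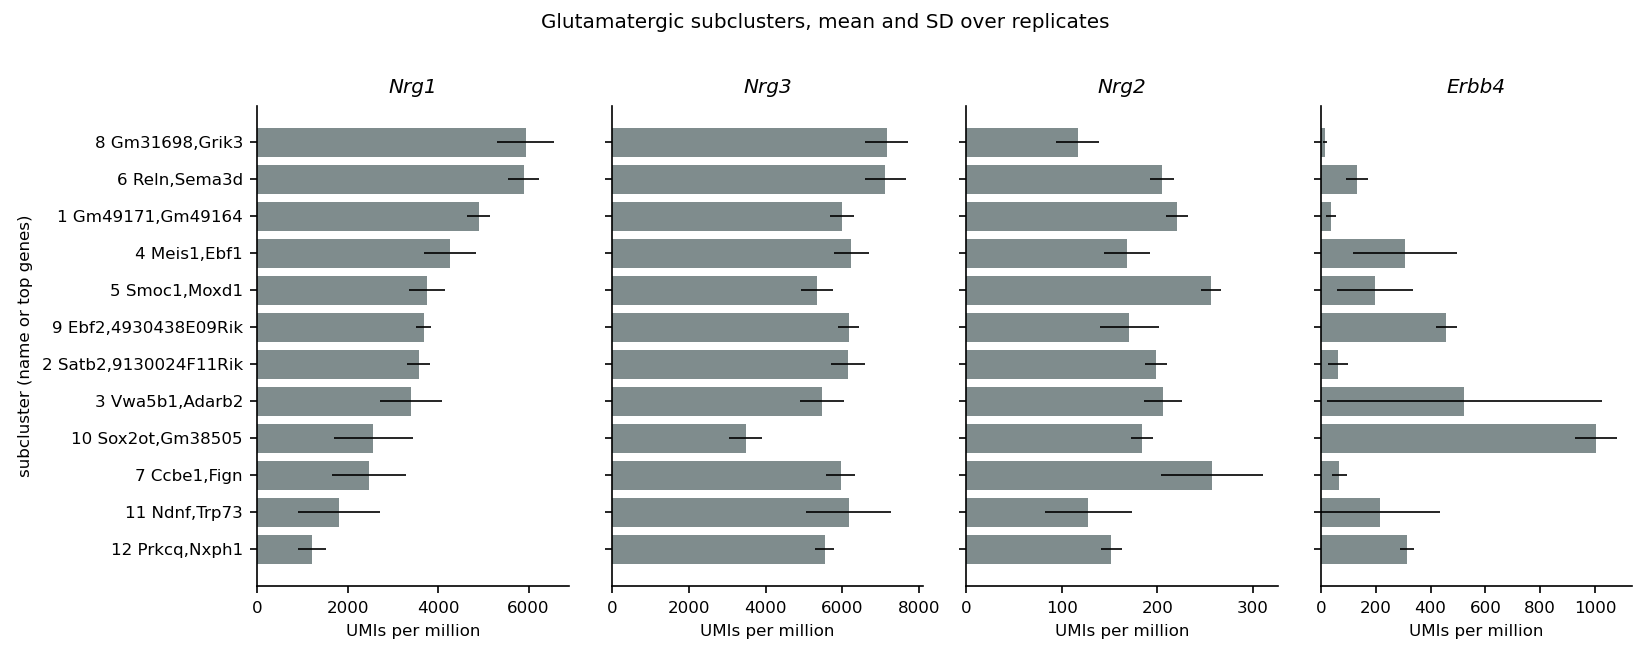
Mean level in CPM (bars, from 0) of Nrg1, Nrg3, Nrg2 and Erbb4 in 12 glutamatergic subclusters, with the SD over replicates of at least 10 nuclei as lines. Rows are ordered by Nrg1, from subcluster 8 at 5934 CPM to subcluster 12 at 1213 CPM, whereas Nrg3 changes little.

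Subclusters were grouped by which vesicular glutamate transporter predominated, Slc17a7 (VGluT1) or Slc17a6 (VGluT2). The Slc17a7 group had 7424 aplCoA and 7579 pplCoA nuclei, and the Slc17a6 group 4406 and 624, with only 33 in pplCoA replicate 3. Erbb4 was at 412 ± 248 CPM in the Slc17a6 and 87.9 ± 39.2 CPM in the Slc17a7 group, higher in the former in 6 of 6 replicates, but the test did not pass the correction over 8 genes (exact sign-flip permutation test, p = 0.03125, adjusted p = 0.125). Nrg2 was at 219 ± 7.35 CPM in the Slc17a7 and 175 ± 12.2 CPM in the Slc17a6 group, again in 6 of 6 replicates with the same p values in the same exact test. For Nrg1 the means were 4230 ± 619 and 3517 ± 520 CPM, with 5 of 6 replicates higher in the Slc17a7 group (exact permutation test, p = 0.15625, adjusted p = 0.3125). The 5 GABAergic markers summed to 49.5 ± 15.6 CPM in the Slc17a6 and 12.6 ± 5.09 CPM in the Slc17a7 group. Their part in the Erbb4 difference between the groups was not tested.

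The domains were compared within each class by edgeR's quasi-likelihood test on summed UMIs, with Benjamini-Hochberg adjustment over all genes tested in the class. A gene had to be seen in 10% of the nuclei of a domain, which left 40 of the 80 pairs of a member and a class. Of these, 3 passed an adjusted p of 0.05: Nrg1 and Erbb4 in glutamatergic nuclei and Nrg3 in GABAergic nuclei. Among all genes, 20.9% passed in glutamatergic and 9.87% in GABAergic nuclei, and these members were 2 of 5 and 1 of 5 tested.

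Nrg3 in GABAergic nuclei was lower in the aplCoA. The aplCoA replicates held 4363, 4433 and 4744 CPM and the pplCoA replicates 5340, 6325 and 5772 CPM, and the groups did not overlap. The log2 fold change was -0.42 (SE 0.0778, edgeR quasi-likelihood adjusted p = 0.00604). The call held in each of the 6 fits that left out a replicate, with values of -0.48 to -0.35. It was not the same in size across subclusters. Equal weights were given to the 11 subclusters with at least 10 nuclei in every replicate, which left out the Nrg3-rich subclusters 10, 15 and 17. The ratio of the domain means was then -0.17 on the log2 scale, still without overlap (4218 ± 245 against 4742 ± 35.9 CPM). Set and weights changed together here, and their parts were not told apart. Of the 11, 10 had the lower mean in the aplCoA, but in only 4 was every aplCoA replicate the lower. The largest ratios were in the Vip-like subcluster 3, at 4371 ± 266 against 5327 ± 172 CPM, and the unnamed subcluster 9, at 5949 ± 429 against 8449 ± 1130 CPM (log2 ratios -0.29 and -0.51). The other ratios lay between -0.17 and 0.01, and the Vip-like subcluster 4 was the exception in direction. The Nrg3-rich subcluster 17 had 42 nuclei from the aplCoA and 81 from the pplCoA, and without it the log2 ratio of mean CPM went from -0.36 to -0.27. The 7 glutamatergic markers, none of them at 0, summed to 331 to 373 CPM in the aplCoA and 357 to 416 CPM in the pplCoA GABAergic nuclei, although 5 of the 7 had the higher mean in the aplCoA. The 5 GABAergic markers were all higher in the aplCoA there and summed to 1566 to 1579 CPM against 1357 to 1393 CPM, without overlap. The part of either list in the Nrg3 result was not tested.

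Nrg1 in glutamatergic nuclei was also lower in the aplCoA, at 3818 ± 334 against 4583 ± 257 CPM, with no overlap of the replicates given above. The log2 fold change was -0.35 (SE 0.0914, edgeR quasi-likelihood adjusted p = 0.0306). The difference depended on which subclusters were included. Subcluster 7, which is low in Nrg1, held 1827 aplCoA and 91 pplCoA nuclei. Without it the means were 4315 ± 181 and 4602 ± 257 CPM, the ranges overlapped, and the log2 ratio went from -0.26 to -0.09. Fign was among its leading genes, and in the paper a Fign subtype likely comes from a transition area beside the aplCoA. Whether subcluster 7 matches that subtype was not tested. The ranges also overlapped without subcluster 1 (-0.24) or subcluster 3 (-0.27). With equal weights for the 7 subclusters that had at least 10 nuclei in every replicate, the ratio was -0.04. That set left out, among others, subcluster 4 with 2348 nuclei and subcluster 8, the highest for Nrg1. Within the Slc17a7 group alone the fold change of -0.33 (SE 0.115) did not pass (edgeR quasi-likelihood adjusted p = 0.119, with 9.13% of genes passing there). In the Slc17a6 group every aplCoA replicate (3576, 4413 and 3598 CPM) lay above the pplCoA replicates (3494, 3114 and 2905 CPM), with a fold change of 0.20 that did not pass (edgeR quasi-likelihood adjusted p = 0.537; 2.19% of genes passed there), and with nuclei split by their own transporter UMIs it was -0.13. The call was lost in 4 of the 6 fits that left out a replicate, those without aplCoA 1, aplCoA 2, pplCoA 2 or pplCoA 3, at adjusted p = 0.0850, 0.109, 0.122 and 0.0716 by the same edgeR test.

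Erbb4 in glutamatergic nuclei was higher in the aplCoA. The aplCoA replicates held 194, 160 and 169 CPM and the pplCoA replicates 119, 56.6 and 40.6 CPM, without overlap, and the log2 fold change was 1.19 (SE 0.324, edgeR quasi-likelihood adjusted p = 0.0338). All these levels were under the 692 CPM of the free RNA. The 5 GABAergic markers, none of them at 0, were all higher in the aplCoA glutamatergic nuclei and summed there to 22.0 to 38.3 CPM, against 6.71 to 17.2 CPM in the pplCoA and 1476 ± 105 CPM in GABAergic nuclei. Their part in the Erbb4 difference was not tested. Within the Slc17a7 group the replicates stood at 123, 127 and 111 against 80.9, 54.0 and 31.4 CPM, and the fold change was 1.07 (SE 0.276, edgeR quasi-likelihood adjusted p = 0.0496). This call was lost in both other groupings tried, with domain genes kept in the clustering (0.87, edgeR adjusted p = 0.0745) and with nuclei split by their own transporter UMIs (0.93, edgeR adjusted p = 0.0822), though the fold changes stayed positive. The marker sum there was 11.2 to 20.4 against 6.45 to 13.5 CPM. Leaving out the shallow subcluster 10 from this group gave a log2 ratio of mean CPM of 1.03, against 1.12 with it, and no subcluster left out brought the ratio below 0.92. In the Slc17a6 group the fold change was -0.80 (SE 0.348), which did not pass (edgeR quasi-likelihood adjusted p = 0.285; 2.19% of genes passed there) and which included 1 replicate at 887 CPM from 33 nuclei. In the same other groupings it was 0.14 and -0.10, so no direction can be given for this group. Equal weights for the same 7 subclusters reversed the ratio to -0.39, with overlapping groups. This set lacks subcluster 4, which had 2179 aplCoA and 169 pplCoA nuclei, so set and weights changed together. The aplCoA mean was the lower in only 2 of the 7, subclusters 3 and 11. With equal weights the aplCoA replicates stood at 137, 151 and 172 CPM and the pplCoA replicates at 172, 102 and 330 CPM. In subcluster 3 pplCoA replicate 3 stood at 1537 CPM from 15 nuclei, and subcluster 11 was shallow (median 3731 UMIs). The part of either in the reversal was not tested. Subcluster 5, led by Smoc1 and chosen after its values were seen, was at 311 ± 68.5 CPM in the aplCoA and 83.3 ± 62.0 CPM in the pplCoA. The Erbb4 call in glutamatergic nuclei was lost in 5 of the 6 fits that left out a replicate and kept only without pplCoA 1, where the fold change was 1.75.

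In GABAergic nuclei Erbb4 did not pass between domains, with a log2 fold change of -0.12 (SE 0.0850, edgeR quasi-likelihood adjusted p = 0.450). The change between domains was compared between the neuron classes by an interaction term with the replicate in the model, for which 5.26% of genes passed. For Erbb4 the GABAergic minus the glutamatergic change was -1.47 on the log2 scale (SE 0.315, edgeR quasi-likelihood adjusted p = 0.0274). The call was lost in every fit that left out a replicate except the one without pplCoA 1 (-1.91). The interaction was 0.54 for Nrg1 (adjusted p = 0.134 in the same edgeR fit) and -0.29 for Nrg3 (adjusted p = 0.116), neither of which passed, so a difference between the neuron classes was not shown for either.

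**Figure D4:**
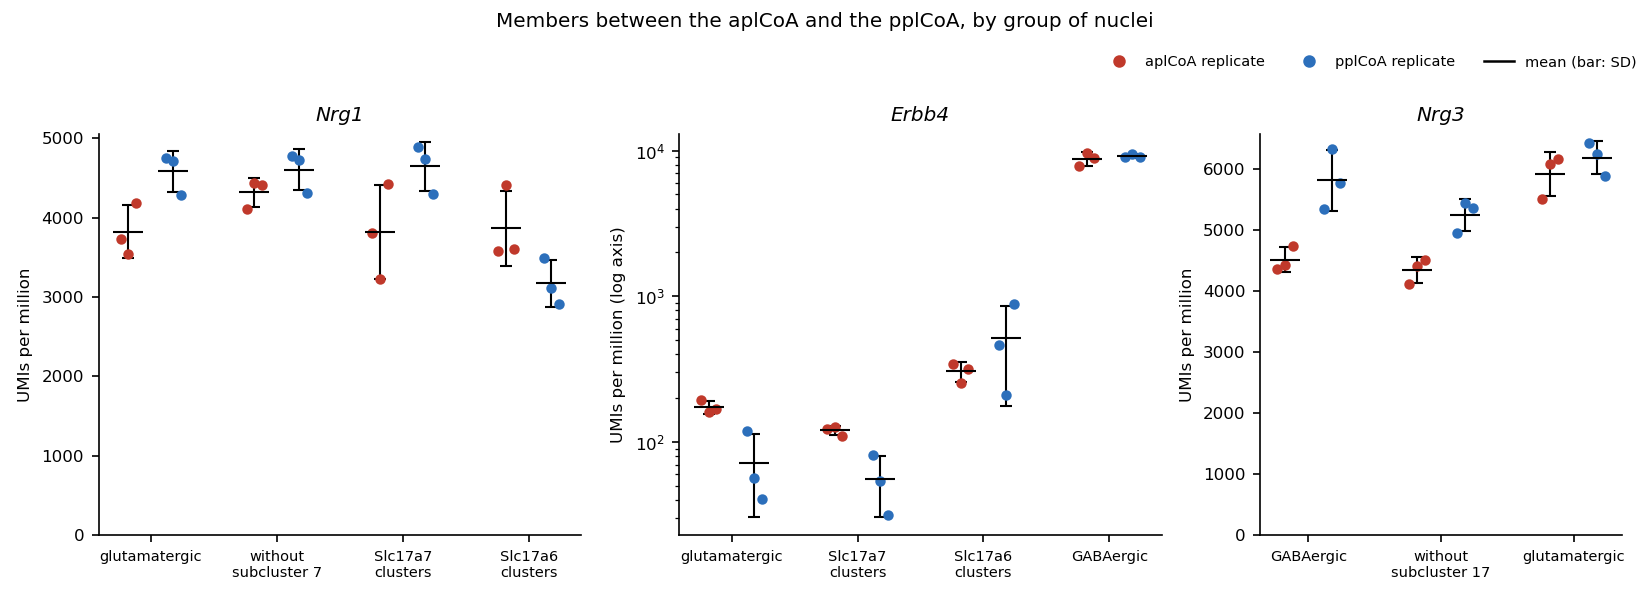
Levels in CPM of Nrg1, Erbb4 (log axis) and Nrg3 in aplCoA (red) and pplCoA (blue) replicates for the groups of nuclei named under each axis, with the mean and SD of 3 replicates in black. Nrg1 separates the domains in all glutamatergic nuclei but overlaps without subcluster 7, Erbb4 separates them in the Slc17a7 clusters and overlaps in the Slc17a6 clusters, and Nrg3 separates the domains in GABAergic nuclei with and without subcluster 17.

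Outside neurons no member passed between domains in the main fit, with classes from clusters. Erbb4 in MOLs did pass when replicate numbers were a block in that fit. With classes from the marker UMIs of each nucleus 10 pairs outside neurons passed, 3 in OPCs, 1 in NFOLs, 2 in macrophages and 4 in ABCs. Of all genes, 986 of 6810 passed there in OPCs, 282 of 7390 in NFOLs, 140 of 5447 in macrophages and 1672 of 8826 in ABCs. Egfr in ABCs turned to 1.16, so the absence of calls depends on how the classes are drawn. Both ways gave the same class to 89.6% of nuclei, and 8826 genes were tested in ABCs against 5934 with clusters. The purity of the classes from marker UMIs was not tested. With classes from clusters, the share of all genes that passed was 6.44% in OPCs, 2.22% in MOLs, 0.518% in astrocytes, 0.0174% in VLMCs and 0% in NFOLs, microglia, macrophages and ABCs, where edgeR gave 652, 257, 257 and 466 genes with an unadjusted p under 0.05. With classes from clusters, 6 of the pairs tested outside neurons had groups that did not overlap. These were 2 of 4 pairs tested in MOLs, 2 of 5 in astrocytes, 1 of 4 in ABCs and 1 of 4 in NFOLs. None of the 4 tested in OPCs, 4 in macrophages, 3 in VLMCs and 2 in microglia did. The same share over all genes was not computed, and 3 replicates against 3 can separate without any change. The 6 pairs are therefore only described, and nothing is read from their number or directions. In MOLs Erbb4 was at 2035, 2384 and 2471 CPM in the aplCoA and at 2513, 2851 and 2840 CPM in the pplCoA (log2 fold change -0.28, SE 0.110, edgeR quasi-likelihood adjusted p = 0.237). Erbb3 in the same nuclei was at 89.1 ± 8.43 against 68.4 ± 5.84 CPM (0.33, SE 0.194, adjusted p = 0.506 in the same edgeR fit). Egfr was at 794 ± 64.0 against 1117 ± 54.3 CPM in ABCs (-0.46, SE 0.150, edgeR adjusted p = 0.461) and at 309 ± 13.7 against 353 ± 35.6 CPM in astrocytes (-0.21, SE 0.0829, edgeR adjusted p = 0.268). Erbb4 in astrocytes was at 437 ± 15.6 against 399 ± 8.41 CPM (0.11, SE 0.0607, edgeR adjusted p = 0.439). Nrg1 in NFOLs was at 597 ± 56.3 against 987 ± 53.0 CPM (-0.76, SE 0.190, edgeR adjusted p = 0.260), from 309 nuclei in all. In OPCs the fold change of each of the 4 members tested was between -0.14 and -0.08, and none passed.

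Around the receptors, 78 genes of the pathway were followed, covering the EGF-family ligands of Egfr and Erbb4, shedding and cleavage, adaptors, the kinase cascade and negative regulators. In glutamatergic nuclei 59 were tested and 7 passed, 6 higher and 1 lower in the aplCoA, with a median log2 fold change of 0.02 against 0.00 over all 9688 genes, of which 20.9% passed. Those higher in the aplCoA were the small GTPase gene Hras (0.88, SE 0.139, edgeR quasi-likelihood adjusted p = 0.00638), the γ-secretase subunit gene Psenen (0.65, SE 0.131, adjusted p = 0.0119 in the same edgeR fit), Lrig1, whose product lowers ErbB receptors at the membrane (0.55), the PI3-kinase subunit gene Pik3r1 (0.47), the transcription factor gene Stat5b (0.38) and the adaptor gene Nck1 (0.36). The aplCoA replicates held 18.5, 18.5 and 13.9 CPM of Hras and the pplCoA replicates 9.07, 7.66 and 9.42 CPM, without overlap. In GABAergic nuclei 1 of 56 genes tested passed, Hras at 0.73 (SE 0.161, edgeR adjusted p = 0.0119), beside 9.87% of all genes. In OPCs 1 of 54 passed, Psenen at 0.66 (SE 0.154, edgeR adjusted p = 0.0178), beside 6.44% of all genes. In each of the 3 classes the share of pathway genes that passed was below that of all genes, so these counts show nothing particular to the pathway. No pathway gene passed in the other classes. None of the 7 EGF-family ligands was seen in enough nuclei of either neuron class to be tested.

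Genes with the most similar pattern were sought over 42 units (the non-neuronal classes and the subclusters of at least 50 nuclei) by Pearson's r of log2(CPM + 1), among 15286 genes. The units share libraries and differ in depth, and the values are a description. Nrg3 was closest to Gm20642 (r = 0.996), Nrg3os (0.995) and Gm20641 (0.979), and Egfr to Egfros (0.979), all of which overlap the member on the opposite strand. In glutamatergic nuclei Nrg3os stood at 1006 ± 165 CPM and Gm20642 at 817 ± 88.8 CPM, or 16.6% and 13.5% of Nrg3, and Egfros stood at 17.7% of Egfr in ABCs. Reads of these pairs may not be told apart. The next genes for Egfr were Sh3bgrl and Zbtb16 at 0.71 each. Erbb4 was most similar to Gad1 (0.88), which makes GABA, to Tcp11l1 (0.86) and to Dlx1as (0.86). Erbb3 followed the oligodendrocyte genes Fa2h (0.88), which hydroxylates myelin lipids, Slc5a11 (0.86) and Cyp3a13 (0.86). Nrg1 was closest to Camk4 (0.83), a calcium-dependent kinase gene, 4933424G06Rik (0.82) and D630023F18Rik (0.82), Nrg2 to its antisense neighbour 4930471G03Rik (0.85), Astn1 (0.84) and Sept3 (0.83), and Nrg4 to Gm49961 (0.86), Hook1 (0.86) and Erc2 (0.85). Erbb2 was under 10 CPM in every unit and was not compared. Between members, r was 0.01 for Erbb4 with Nrg1 and 0.36 for Erbb4 with Nrg3.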

How the data were processed

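The authors deposited raw UMI counts per gene and barcode (10x 3' v3.1), made with Cell Ranger 5.0.0 on mm10 with intronic reads included. Members and gene lists were chosen with earlier results of these data known. Barcodes with at least 1000 genes were kept, doublets were removed by Scrublet score at 1% per 1000 nuclei, and nuclei were clustered without the members (Pearson residuals of 5000 genes, 50 components, 15 neighbours, Leiden; scanpy 1.11.5) and named by markers. Replicates are tissue pools that the labels call biological replicates. How the pools were collected is not in the labels, so p-values measure only the spread between these pools, part of which may be technical. Classes were compared by exact sign-flip permutation tests over 6 replicates and domains by edgeR 4.0.16 (quasi-likelihood, TMM, adjusted p under 0.05). The edgeR fit was also run on simulated counts, with changes larger than those called for the members. That run does not bear on changes of their size. Alternatives were DESeq2 1.42.0, other scaling, filters, classes and replicates left out. Thinning to 2000 UMIs fixed depth for shares. All members were named, with up to 8 pathway genes per neuron class that passed with the largest change and the 3 most similar genes per member, and 1 pathway gene is not reported here. Replicate numbers are not known to pair the pools. In glutamatergic nuclei, deviations of same-numbered pools correlated at 0.10, -0.06 and 0.13, and those of other pools at -0.22 to 0.18. In GABAergic nuclei the same-numbered values were 0.01, -0.15 and -0.02. Free RNA was not subtracted.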

Additional observations from a re-analysis of the deposited data

Results flagged for a closer look

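Egfr in GABAergic nuclei of pplCoA replicate 2 was at 281 CPM, far from the other 5 replicates, the nearest of which was at 236 CPM. It was the 1 such value among 46 groups of 6 replicates examined, and chance alone flags about 1 group in 20.

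The change of Erbb4 between domains differed between GABAergic and glutamatergic nuclei by -1.47 on the log2 scale (edgeR quasi-likelihood adjusted p = 0.0274). The call was lost in 5 of the 6 fits that left out a replicate (edgeR adjusted p = 0.0514 to 0.131), all but the one without pplCoA 1, and without the replicate in the model (-1.33, edgeR adjusted p = 0.0950).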

How the results depend on the processing

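Of the alternatives tried, 248 values kept direction and call or stayed within the spread, 64 lost a call, 24 moved, 3 gained a call and 3 turned direction. The cause was not tested unless a setting's construction gives it. With each replicate left out in turn, levels ran from 4091 to 4333 CPM (Nrg1, glutamatergic), 198 to 284 (Nrg2, macrophages), 5977 to 6159 (Nrg3, glutamatergic), 14.7 to 15.1 (Nrg4, glutamatergic), 910 to 995 (Egfr, ABCs), 8.92 to 10.7 (Erbb2, ABCs), 75.3 to 82.1 (Erbb3, MOLs) and 8879 to 9257 (Erbb4, GABAergic). Class differences ran from 2699 to 3090 CPM (Nrg1), 35.3 to 41.4 (Nrg2), 735 to 1083 (Nrg3), 4.38 to 4.96 (Nrg4), 8763 to 9148 (Erbb4), 63.2 to 69.0 (Erbb3), 316 to 336 (Egfr) and -2.54 to -2.22 (Erbb2), and since 5 pairs cannot reach an exact p under 0.0625 the calls lost there follow from the number of pairs (Nrg3 had none to lose, and the test of Erbb2 against MOLs at 0 is not read). The domain changes ran from -0.42 to -0.30 (Nrg1, glutamatergic), 0.91 to 1.75 (Erbb4, glutamatergic) and -0.48 to -0.35 (Nrg3, GABAergic), with 1 to 3 pairs called, and the interactions from 0.35 to 0.68 (Nrg1), 0.03 to 0.13 (Nrg2), -0.36 to -0.24 (Nrg3) and -1.91 to -1.16 (Erbb4). Nrg1 and Nrg3 gained an interaction call without pplCoA 1. Classes from marker UMIs gave 134 CPM of Egfr and 1.49 CPM of Erbb2 in ABCs, without doublet removal the Nrg3 difference was 928 CPM and passed (adjusted p = 0.03125, exact test), and Nrg3 in the Slc17a7 minus the Slc17a6 group turned to -111 CPM with nuclei split by their own UMIs and to -72.3 CPM with domain genes kept. Shares of nuclei at 1000 UMIs and unthinned were 91.8% and 99.4% (Nrg1), 93.5% and 98.6% (Erbb4), 50.7% and 82.2% (Egfr) and 6.97% and 20.7% (Erbb3), and 99.1% at 1000 UMIs for Nrg3. The 3 calls between domains became 5 with no filter (all of them in neurons, where 3420 of 27728 genes passed in glutamatergic and 1523 of 24994 in GABAergic nuclei), 1 with library 2 alone for aplCoA replicate 1 (1520 of 9724 and 621 of 8870 genes), 13 with classes from marker UMIs (1857 of 9756 and 904 of 8708 genes) and 0 at an adjusted p of 0.01 with a 1.5-fold change (edgeR; Nrg1 -0.35, Erbb4 1.19 and Nrg3 -0.42). Nrg1 in glutamatergic nuclei lost its call with scaling to total counts (-0.26) and with library 2 alone (-0.38), and Erbb4 with library 2 alone (1.28). Chosen after seeing the data, equal weights of the subclusters with at least 10 nuclei in every replicate gave -0.17 (Nrg3), -0.036 (Nrg1) and -0.39 (Erbb4). Leaving out 1 subcluster, also chosen after seeing the data, brought the ratio of mean CPM to -0.27 (Nrg3, subcluster 17), -0.093 (Nrg1, subcluster 7) and 1.00 (Erbb4, subcluster 1).

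Replicate numbers are not known to pair the pools. With the replicate block Nrg1 in glutamatergic nuclei lost its call at -0.35 (edgeR adjusted p = 0.0593), Erbb4 in MOLs gained one at -0.29 (adjusted p = 0.0445), and 3 pairs were called in all. In the interaction, where both classes come from the same pools, the fit without the replicate block gave -1.33 for Erbb4 (edgeR adjusted p = 0.0950), which did not pass. Erbb2, Erbb3 and Nrg4 had the fewest UMIs of the members, and the part of depth in this was not tested.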
